A study of Mus musculus with 4 samples.

Results

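Carboxylesterases are serine hydrolases of the endoplasmic reticulum that split esters and amides. The 7 mouse carboxylesterase genes described here are Ces2a, Ces2b, Ces2c and Ces2e of the Ces2 group and Ces1d, Ces1f and Ces1g of the Ces1 group. They were taken by name, through the accession of every gene probe on the array, and were chosen by the ratio of their signal in mice aged 90 days (P90) to that in mice aged 30 days (P30) on these same arrays, so that ratio is given as a description without a test. They make up 7 of the 20825 genes and transcripts that passed the filter on dim probes, and 11 probes stood for them. All 7 passed that filter, and each of the 11 probes was well above background at both ages on all 4 arrays.

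Colonic mucosa of C57BL/6 mice was compared at the 2 ages on 4 two-colour Agilent arrays, named a, b, e and k in the labels. The mucosa was sheared off with a microscope slide and frozen, and each array received 0.4 ug of P90 RNA and 0.4 ug of P30 RNA in opposite dyes. Cy3 marked the P90 RNA on 3 arrays (a, b and k), and on array e the dyes were exchanged, so that Cy5 marked it. Wherever 4 values follow each other below, they belong to arrays a, b, e and k in that order. All 4 arrays lay on 1 slide, and the labels name no treatment, genotype or sex. They call the 4 comparisons independent and do not say whether an animal was used once, so the spread between arrays may be in part technical.

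In the gut, Ces2 enzymes hydrolyse ester drugs, prodrugs and dietary esters in epithelial cells, and members of the same group can also hydrolyse triacylglycerol and diacylglycerol. Ces1 enzymes are best known from liver and fat tissue, where Ces1d, also called triacylglycerol hydrolase, acts on stored lipid that is later secreted in lipoproteins. Many of the genes are close copies of each other, so a probe may bind transcripts of a neighbour, and values of single paralogs carry that uncertainty, which was not tested. In these bulk samples, fewer cells of a type and less RNA per cell cannot be told apart.

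The genes lie in 2 runs on mouse chromosome 8. In the RefSeq order of assembly GRCm38.p6, Ces1a to Ces1h follow each other and end at Ces5a, with no other protein-coding gene between them. After 68 other protein-coding genes the second run begins with Ces2a, Ces2b, Ces2c, the pseudogene Ces2d-ps and Ces2e, and goes on through Ces2f, Ces2g, Ces2h, Ces3a and Ces3b to Ces4a, again with no other protein-coding gene between them. RefSeq promoter windows were found for 4 of the 7 genes, namely Ces2a, Ces2c, Ces2e and Ces1g. The windows of 3 Ces2 neighbours are shown because these genes lie in 1 run and differ in their P90/P30 ratio, from Ces2a with the highest to Ces2e with the lowest of the Ces2 genes described. Each holds the 250 bases before the annotated start, on the plus strand of GRCm38.p6, at chr8:104733753-104734002 for Ces2a, chr8:104846818-104847067 for Ces2c and chr8:104926010-104926259 for Ces2e. Capitals mark matches on either strand to CCAAT, to the nuclear receptor core site AGGTCA and to CAAAGT, the short core of the HNF4 motif.
Ces2a: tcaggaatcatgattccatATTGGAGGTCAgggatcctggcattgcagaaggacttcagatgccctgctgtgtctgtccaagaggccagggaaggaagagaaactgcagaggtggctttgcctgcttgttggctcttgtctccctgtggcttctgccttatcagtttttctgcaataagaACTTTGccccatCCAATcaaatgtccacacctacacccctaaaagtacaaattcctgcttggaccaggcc
Ces2c: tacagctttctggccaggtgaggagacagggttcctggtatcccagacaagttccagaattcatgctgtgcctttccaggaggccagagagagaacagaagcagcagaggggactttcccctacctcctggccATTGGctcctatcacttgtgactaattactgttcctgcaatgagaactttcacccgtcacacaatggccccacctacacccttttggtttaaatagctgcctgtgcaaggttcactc
Ces2e: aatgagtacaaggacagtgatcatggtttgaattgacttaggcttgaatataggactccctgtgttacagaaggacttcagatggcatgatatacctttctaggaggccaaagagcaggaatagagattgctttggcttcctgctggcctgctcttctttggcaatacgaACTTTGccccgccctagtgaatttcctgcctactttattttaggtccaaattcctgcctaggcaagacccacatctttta

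Strands and positions follow the direction of each gene, and a position is that of the first base of a match, counted from the annotated start. The Ces2a window held CAAAGT on the minus strand at position -70 from the start, a few bases from CCAAT at -58, and it held AGGTCA at -226 beside a minus-strand CCAAT at -231. The Ces2e window held CAAAGT in the same orientation at -80, and the Ces2c window held none of the 3 except CCAAT on the minus strand at -117. Over the 250 bases, 67.6% were identical between Ces2a and Ces2c, 65.2% between Ces2a and Ces2e and 63.2% between Ces2c and Ces2e, against 46.0% to 50.8% between Ces1g and these 3. Across 32851 RefSeq windows of this length, CAAAGT occurred in 12.6%, AGGTCA in 14% and CCAAT in 33.8%. The other letters searched on both strands were AGTTCA (11.8% of windows), CAAAGTCCA, which contains CAAAGT (0.384%), GTTAAT (6.43%), TATAAA (12.4%), TTTATG (10.8%) and AGATAA (9.99%). The Ces1g window held TATAAA on the minus strand at position -26, and the letters AGATAA, also on that strand, at position -194. It further held TTTATG at position -208 and CCAAT at -58 and -179. The remaining 3 motifs searched had no match in any of the 4 windows. A match says only that these letters are present.

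Ces2a, a carboxylesterase of the intestinal and hepatic endoplasmic reticulum, had the highest ratio of the family under the labelled direction of the arrays, at a log2 P90/P30 of 1.35 ± 0.37 (SD, n = 4), or 2.55-fold. The normalized log2 signal of its single probe at P90 was 13.49, 12.65, 12.73 and 12.92, and at P30 it was 11.63, 11.39, 11.43 and 11.95. The lowest P90 value thus lay above the highest P30 value, and the ages did not overlap. Of all 20825 genes, 184 (0.884%) had 4 P90 signals above all 4 P30 signals. By array the log2 ratio was 1.87, 1.26, 1.30 and 0.97, and none of these spots was saturated. Ces2a ranked 22 of 20825 by its mean ratio (249 with array b turned), and on each array it lay between the 98.4th and the 99.7th percentile of all genes. It was the only one of the 7 whose signals did not overlap between the ages.

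Direction was shared less widely in the rest of the family. Taking the brightest probe for each gene, 2 of the 7 genes, Ces2a and Ces2b, lay above 0 on all 4 arrays, where 1280 of the 20825 genes did (6.15%). For Ces2b this held for its bright probe only barely on array k, and it was lost with the smaller offset, the processed signals, median centring, the deposited log ratios and the value table. None of the 7 lay below 0 on all 4, where 1662 genes did (7.98%). In the limma test of the 2 ages, 0 of the 20825 genes (0%) passed a Benjamini-Hochberg adjusted p of 0.05, with 1645 at an unadjusted p under 0.05, so no carboxylesterase was called either. The median log2 P90/P30 of the 7 genes was 0.46 and that of all genes was -0.020. These shares describe genes chosen for their ratio and are not read against the background.

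**Figure D1:**
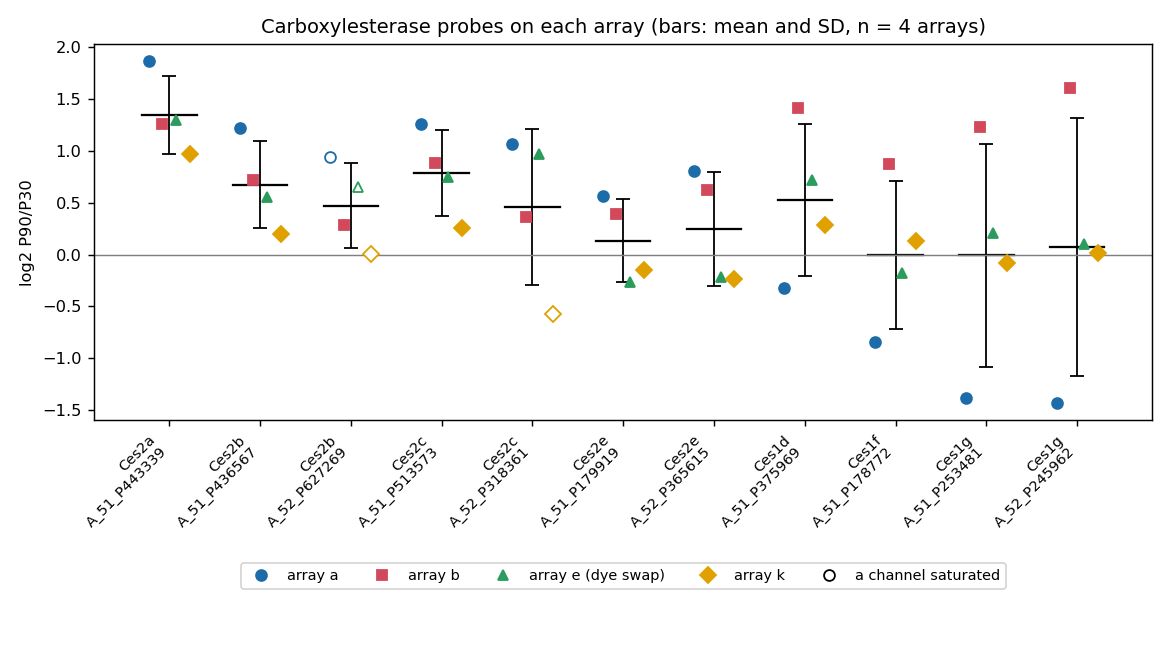
The log2 P90/P30 (vertical axis) of each carboxylesterase probe (horizontal axis) on the 4 arrays, with the mean as a line and the SD as a bar (n = 4); open symbols mark spots with a saturated channel. Ces2a lay above 0 on every array, between 0.97 and 1.87, while the Ces1g probes ranged from -1.43 on array a to 1.61 on array b.

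Ces2b and Ces2c, the neighbours of Ces2a, are each measured by a bright probe and by a second probe that was never saturated. Ces2c encodes an intestinal and hepatic hydrolase of acylglycerols and of acylcarnitine. The unsaturated Ces2b probe had normalized log2 signals of 13.89, 13.00, 12.30 and 13.00 at P90, and 12.67, 12.27, 11.75 and 12.80 at P30. Its P90 signal was the higher of each pair, but the ages overlapped across arrays, since the P90 value of array e lay below 2 of the P30 values. The log2 ratios were 1.22, 0.72, 0.55 and 0.20, with a mean of 0.67 ± 0.42 (SD, n = 4), or 1.60-fold. For Ces2c the unsaturated probe had P90 signals of 14.18, 13.58, 12.91 and 13.29, against P30 signals of 12.92, 12.70, 12.16 and 13.04. Its ratios of 1.26, 0.88, 0.75 and 0.26 gave a mean of 0.79 ± 0.41, or 1.73-fold. As scaled here, both genes thus ordered the arrays alike, with a highest and k lowest, an order that changed with median centring (given below). The brightness of their P90 and P30 spots overlapped between the ages.

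The bright probes of both genes gave lower means and were touched by saturation. The bright Ces2b probe read 0.95, 0.28, 0.66 and 0.0079 (mean 0.47 ± 0.41). Its P30 spot was saturated on a and k, where the ratio is therefore an upper bound, and its P90 spot was saturated on e, where it is a lower bound. The bright Ces2c probe read 1.07, 0.37, 0.97 and -0.57 (mean 0.46 ± 0.75), with the P30 spot saturated on k. The probes of Ces2b differed by at most 0.44 on 1 array and those of Ces2c by at most 0.82. At the top of the scale the loess step also moved ratios: spots saturated in both channels came out at 1.06, 0.33, -0.15 and 0.76 (51, 153, 196 and 118 spots). Its part in the values of the bright probes was not tested. Taking for each gene its brightest probe without a saturated spot, a choice made after the values were seen, 3 of the 7 genes lay above 0 on all 4 arrays, Ces2c joining Ces2a and Ces2b. With the brightest probe of each gene, 6.15% of all genes did. The 7 were chosen for this ratio, so their count is not read against that share.

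Ces2e, the last of the 4 Ces2 genes, encodes an intestinal carboxylesterase and had ratios on both sides of 0. The brighter of its probes had P90 signals of 14.74, 14.24, 14.06 and 14.93, and P30 signals of 13.94, 13.62, 14.28 and 15.17. The P90 signal was higher on a and b and lower on e and k. The ratios were 0.81, 0.62, -0.22 and -0.23, with a mean of 0.25 ± 0.55 that lay within the spread between arrays. The other probe gave 0.56, 0.40, -0.26 and -0.15 (mean 0.14 ± 0.40), with the same sign as the first on all 4 arrays.

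**Figure D2:**
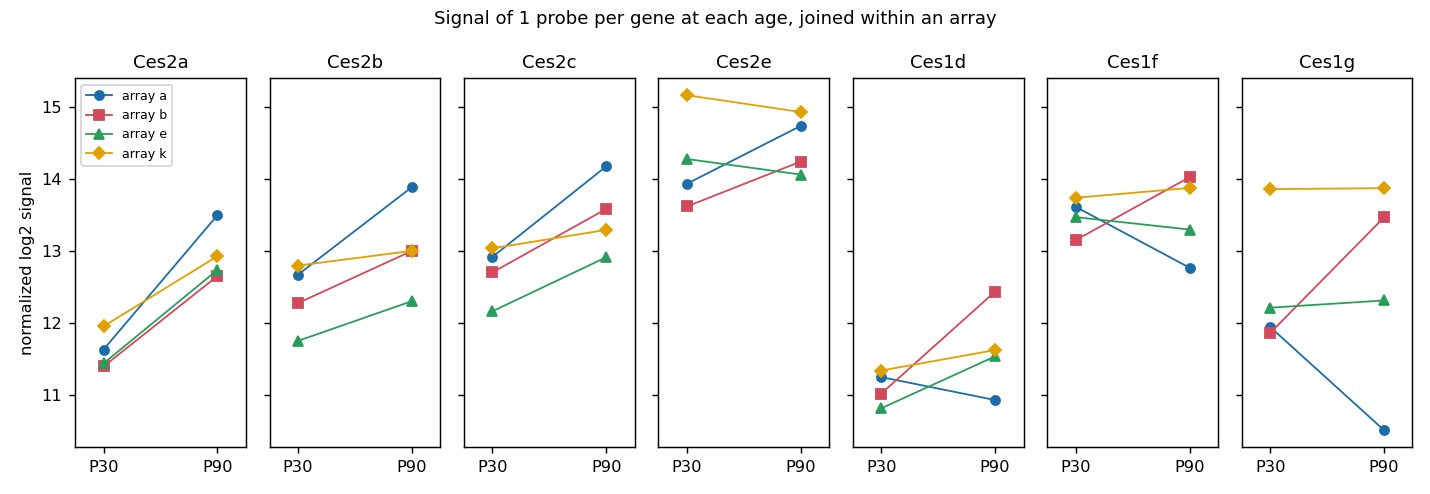
The normalized log2 signal (vertical axis) of 1 probe per gene at P30 and P90 (horizontal axis), with a line joining the ages within each of the 4 arrays; for Ces2b and Ces2c the probe without saturated spots is drawn. For Ces2a the lowest P90 value (12.65) lies above the highest P30 value (11.95); for the other 6 genes the ages overlap.

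The Ces1 genes split the arrays in another way. Ces1d, the triacylglycerol hydrolase, had P90 signals of 10.92, 12.43, 11.53 and 11.62, and P30 signals of 11.24, 11.01, 10.81 and 11.33. Its P90 signal was lower on array a and higher on the other 3, with ratios of -0.32, 1.42, 0.72 and 0.29 and a mean of 0.53 ± 0.73, or 1.44-fold. Without array a the mean was 0.81. Ces1f, a related hydrolase of hepatic lipid, had P90 signals of 12.77, 14.03, 13.30 and 13.88 and P30 signals of 13.61, 13.15, 13.47 and 13.74 on arrays a, b, e and k. Its ratios of -0.85, 0.88, -0.17 and 0.14 were split evenly around 0 and averaged -0.0020 ± 0.71.

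Ces1g, which is linked to lipid handling in the liver, varied most between arrays. Its brighter probe had P90 signals of 10.504, 13.47, 12.31 and 13.87, and P30 signals of 11.94, 11.86, 12.21 and 13.86. The ratio was -1.43, 1.61, 0.10 and 0.012, with a mean of 0.072 ± 1.24. The second Ces1g probe gave -1.38, 1.23, 0.21 and -0.078, so the opposite values of arrays a and b were read by both probes. Array k stood out in level rather than ratio, with the highest Ces1g signal at both ages.

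Between the groups, array a was the point of contrast. On array a all 4 Ces2 genes lay above 0 and none of the 3 Ces1 genes did, and on array b all 7 lay above 0. On array e 3 of the 4 Ces2 genes and 2 of the 3 Ces1 genes were above 0, and on array k 2 of the 4 and 3 of the 3. With the unsaturated Ces2c probe it was 3 of the 4 on k, and the 3 of the 3 include Ces1g at 0.012, whose second probe read -0.078. Over the 4 array values, the closest pair of the 7 was Ces2b and Ces2c (Euclidean distance 0.67 on the log2 scale from the bright probes, whose saturated spots are bounds, and 0.26 from the unsaturated ones) and the farthest was Ces2a and Ces1g (3.66). This difference between the groups was not tested.

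The array behaviour of the whole series touches these values. Across all probes the log2 ratio of array b correlated negatively with that of array a, at r = -0.303, although the labels give both the same dyes. Across the genes tested, which are not independent replicates, r was -0.309 for a and b, -0.266 for b and e and -0.191 for b and k, but 0.597 for a and e, 0.440 for a and k and 0.315 for e and k. The labelled direction was kept because the labels state the dye of each RNA. With the sign of array b turned, Ces2a averaged 0.72, Ces1d -0.18, Ces1f -0.44 and Ces1g -0.73, and no gene of the 7 kept 1 sign on all 4 arrays. Ces2g then had the highest mean of the family, 1.03, above Ces2a.

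Scaling changed the size of the ratios and the sign of several. With each array centred on its median in place of loess, the median of the tested genes itself shifted to -0.55, 0.036, -0.053 and -0.31. Ces2a was then at 1.09, 1.19, 1.24 and 0.42, still above 0 on every array. The unsaturated probes of Ces2b and Ces2c turned below 0 on array k, at -0.34 and -0.28. Both were then highest on b, at 0.61 and 0.73, and read 0.51 and 0.58 on a. Ces1d, Ces1f and Ces1g also turned below 0 on k, at -0.28, -0.39 and -0.51, as did the dimmer Ces2e probe on a, at -0.38. The bright Ces2b probe turned below 0 on b, at -0.033, and on k, at -0.48. In the authors' deposited log ratios, to which no loess was added here, the unsaturated Ces2b and Ces2c probes were above 0 on all 4 arrays. They read 1.65, 0.49, 0.62 and 0.37 for Ces2b and 1.75, 0.59, 0.87 and 0.50 for Ces2c. The tested genes had medians of -0.067, -0.071, 0.030 and -0.036 in these ratios. How the ratios had been normalized before deposit was not checked, so they are not taken as values free of loess. Ces2a was above 0 on all 4 arrays in each of the ways of making the ratio that are plotted by setting. Signs of means were also followed over all 18 settings, which beyond scaling include array b turned, array weights and single arrays left out. The mean of Ces2e changed sign in 2 of them, that of Ces1d in 1 (array b turned) and that of Ces1g in 4. That of Ces1f, at -0.0020 as reported, changed sign in 7.

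**Figure D3:**
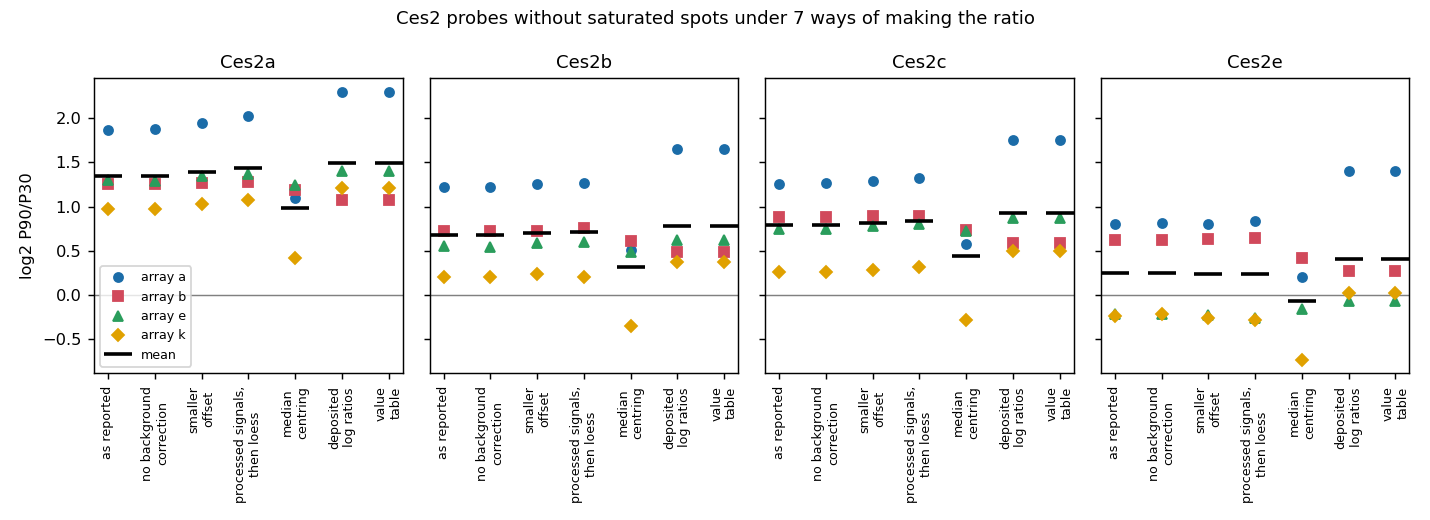
The log2 P90/P30 (vertical axis) of 4 Ces2 probes without saturated spots on each array under 7 ways of making the ratio (horizontal axis), with the mean as a black line. Ces2a stays above 0 on every array in all 7, while Ces2b and Ces2c drop below 0 on array k under median centring (-0.34 and -0.28).

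Beyond the 7, 8 other carboxylesterase genes had a probe and 5 of the 20 in RefSeq had none named here. Ces2f and Ces2g, which follow Ces2e on the chromosome and whose windows also hold CAAAGT on the minus strand (at -92 and -117), read 1.37 and 1.89 on array a, 0.27 and -1.17 on b, 1.04 and 1.103 on e and -0.16 and -0.065 on k. Their means were 0.63 ± 0.70 and 0.44 ± 1.34. The 6 Ces2 genes tested had a median of 1.22, 0.32, 1.01 and -0.11. On k 2 of the 6 lay above 0. With the unsaturated probes of Ces2b and Ces2c the medians were 1.31, 0.67, 0.90 and 0.069, and 3 of the 6 lay above 0 on k.

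Ces1e, the neighbour of Ces1d, read -0.28, 0.80, 0.047 and 0.36 on arrays a, b, e and k (mean 0.23 ± 0.46), the same order of arrays a and b as its neighbours. Ces1c, which encodes a secreted esterase of mouse plasma, differed from them with 1.64, -0.17, 1.03 and -0.16 (mean 0.58 ± 0.90), and its second, dimmer probe averaged 0.17. Ces1b was dim and averaged 0.11 ± 0.32. The 6 Ces1 genes tested had a median of -0.30, 0.84, 0.31 and 0.074. Low ratios on array a were therefore shared by the Ces1 genes from Ces1d to Ces1g on the chromosome and not by Ces1b and Ces1c.

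Ces3b, a hepatic hydrolase gene near the end of the second run, was the third carboxylesterase above 0 on all 4 arrays, at 1.23, 0.021, 0.17 and 0.40 (mean 0.46 ± 0.54). Its signal was low, with normalized log2 values of 6.18 to 7.41 on a scale that includes the offset of 50. Ces4a was not well above background at P90 on any array and Ces5a failed the filter, so no ratio is drawn from either.

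The genes with a symbol whose 4 array values lay nearest to those of Ces2a were, by Euclidean distance over the 4 arrays, Ubd (0.88), Dio1 (0.92), Celf3 (0.95) and Cyp3a41a (0.98). Dio1, the deiodinase that activates thyroid hormone, read 1.40, 0.80, 0.89 and 0.48 on a, b, e and k. Cyp3a41a, a drug-metabolizing cytochrome P450 with near-identical copies, read 1.08, 1.79, 1.54 and 0.83. Its signal was low, with mean normalized log2 values of 7.73 at P90 and 6.42 at P30. Nearest to Ces1d were Fmo5 (0.41), Itgb7 (0.42), Bmp3 (0.57) and Spn (0.58). Fmo5, a flavin monooxygenase, read -0.038, 1.16, 0.57 and 0.23, and Itgb7 and Spn, which are leukocyte surface genes, had their lowest value on a and highest on b as Ces1d did.

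Other esterases showed no common direction. Of 20 other esterases, amidases and epoxide hydrolases, 0 passed the limma test, where 0% of all genes did, and the median was -0.050. On all 4 arrays 5 lay above and 2 below 0, where 6.15% and 7.98% of all genes did. Together 35% of this list had 1 sign on all 4 arrays, against 14.1% of all genes, but not the same sign. Ephx2, the soluble epoxide hydrolase, stood at 0.66 ± 0.12 (SD, n = 4) with little spread, from 0.58 on e to 0.85 on b. Ache, the acetylcholinesterase gene, stood at 0.30 ± 0.16, with a low signal (mean normalized log2 7.06 at P90 and 6.76 at P30). Aadac, an arylacetamide deacetylase of the same cell compartment as the carboxylesterases, lay on the other side, at -0.28, -0.77, -1.20 and -1.03 (mean -0.82 ± 0.40). Pon1, a lipoprotein-bound esterase, was well above background on 3 arrays at P90 and on none at P30, so no mean ratio is given. It passed the filter through P90 alone, yet it is counted among the 5 above 0 and in the 35%. Those shares are therefore not read as a result about the list.

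The lipid hydrolases and the genes of triglyceride synthesis shared no direction across the arrays. Of 14 neutral and acid lipid hydrolases, 11 had a mean above 0, where 45.6% of all genes did, and 0 had 1 sign on all 4 arrays, where 14.1% did (median 0.14). Pnpla2, the adipose triglyceride lipase, was at 0.47 ± 0.52, and Mgll, the monoacylglycerol lipase, at 0.17 ± 0.58. Of all genes, 6.15% lay above and 7.98% below 0 on all 4 arrays. Of 12 triglyceride synthesis and lipoprotein genes, 1 lay above and 1 below 0 on all arrays (median -0.12). The 1 above was Fabp1, a fatty acid carrier, at 2.79, 1.28, 1.07 and 0.28 (mean 1.36 ± 1.05), and the 1 below was Acsl5, an acyl-CoA synthetase, at -0.24 ± 0.18. In the loess-scaled ratios, Fabp1 ordered arrays a to k from high to low as the unsaturated Ces2b and Ces2c probes did.

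Among 24 nuclear receptor and epithelial transcription factor genes the median was -0.12. On all arrays 2 lay above and 2 below 0, where 6.15% and 7.98% of all genes did. Cebpa, a factor of differentiated cells, had a mean of 0.86 ± 0.21, between 0.65 and 1.16 on single arrays. Klf5, which is active in dividing crypt cells, was at -0.68 ± 0.56, and Cdx2, the intestinal identity factor, at -0.40 ± 0.33. Of 14 conjugation and efflux genes, 10 had a mean below 0 (median -0.28), where 54.4% of all genes did. Sult1c2, a sulfotransferase, lay above 0 on all arrays at 0.58 ± 0.29, and the efflux pump gene Abcc2, with a mean below it, was well above background on 4 arrays at P30 but on 1 at P90, so its ratio is not given. None of these lists held a gene past the limma test.

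The tissue label was checked against cell type markers. All 14 colonocyte markers with a probe passed the filter, with medians of 0.39, 0.33, -0.15 and 0.029, and summed signals of 469832 to 670360 at P90 and 433727 to 495452 at P30. Several of these probes were saturated, which limits how far their ratios can spread. On b and e the medians, 0.33 and -0.15, are the values of spots saturated in both channels and are not read as marker ratios. All 10 fibroblast and matrix markers had a mean below 0, where 54.4% of all genes did, with medians of -3.40, 1.32, -1.82 and -2.76. Their summed signals were 2591 to 31754 at P90 and 12051 to 98642 at P30. The 10 adipocyte markers tested had medians of 0.13, 1.88, 4.70 and 0.26, with summed signals of 6776 to 197772 at P90 and 4230 to 13233 at P30. Of the 10 markers of dividing crypt cells, 8 lay below 0 on all 4 arrays, where 7.98% of all genes did (medians -1.31, -0.43, -0.87 and -0.41). The 9 macrophage markers tested had medians of -0.80, 0.80, -0.44 and -0.38.

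Set beside these lists, the medians of the Ces1 group and of the fibroblast and macrophage markers were lowest on array a and highest on array b, but on e and k the Ces1 median was above 0 while those markers were below. Ces2a read 1.87, 1.26, 1.30 and 0.97, and the fibroblast medians were -3.40, 1.32, -1.82 and -2.76. Ces1d, a gene also active in fat, read -0.32, 1.42, 0.72 and 0.29, and the adipocyte medians were 0.13, 1.88, 4.70 and 0.26. The 7 hepatocyte markers tested had medians of 1.20, -0.13, 0.34 and 0.17. Of them 5 had a mean above 0 and 2 a mean below it, where 45.6% and 54.4% of all genes did. Alb, at 2.05, -0.054, 0.34 and 0.21, had a low signal, with mean normalized log2 values of 7.78 at P90 and 7.14 at P30. The 15 small intestinal enterocyte markers had medians of 0.052, 0.097, -0.037 and -1.03. The goblet cell medians (9 markers) were 1.06, 0.33, -0.15 and 0.76 and follow the values of saturated spots given above. The 7 smooth muscle markers had medians of 0.31, 0.85, 0.999 and -1.22, and the 4 pancreatic acinar markers that passed 0.31, -0.51, 0.27 and 0.021. The acinar genes Cpa1, Cela2a, Pnlip and Amy2a5 and the adipocyte hormone gene Lep failed the filter. The enterocyte genes Lct and Apoa4 were well above background on 1 array at P90 and on 3 at P30. Other genes of the enterocyte list were bright, among them Fabp2, with a mean normalized log2 signal of 15.08 at P90 and 15.68 at P30. The part of any of these cell types in the carboxylesterase values was not tested.

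**Figure D4:**
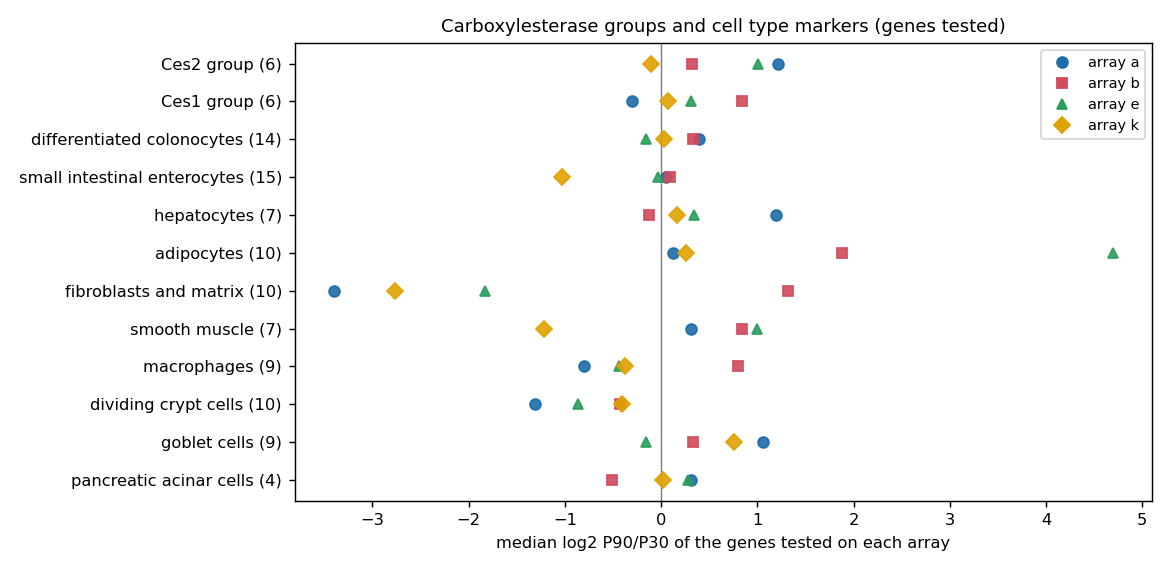
The median log2 P90/P30 on each array (horizontal axis) of the Ces2 group, the Ces1 group and 10 cell type marker lists (vertical axis, with the number of genes tested). The carboxylesterase medians lie between -0.30 and 1.22, while those of fibroblast markers run from -3.40 to 1.32 and those of adipocyte markers from 0.13 to 4.70.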

How the data were processed

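Spot intensity, linear and before normalization, was read with its local background from the deposited scanner files, per the file headers (Agilent Feature Extraction 10.5.1.1; the submitters' processing notes name 8.5.1.1). In the same files the authors deposited a log10 ratio of the processed Cy5 to Cy3 signals. The outlier, background and saturation marks (other, with no unit) are those deposited. The series' value table holds log2 values that matched the deposited ratio, turned to P90/P30, within 0.01 for 80.0% to 87.0% of probes per array; its medians were 0.21, -0.17, 0.049 and 0.17 on a, b, e and k.

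Median signals, the choice where files hold no mean signal, were corrected by normexp (offset 50) and loess (span 0.3, control spots at weight 0) in limma 3.58.1 under R 4.3.3. For the normalized signals of each age, the mean log2 intensity of both channels was then quantile normalized between arrays (method Aquantile). The overlap of signals between the ages and the summed signals rest on that step, and the ratios do not. Outlier spots were left out. Probes well above background at 1 age on at least 3 arrays were kept (27055 of 41174), spots of a probe were averaged, and the brightest probe stood for its gene. RefSeq accessions named 25097 of the 41174 probes. Ratios were tested against 0 with lmFit and eBayes, adjusted by Benjamini-Hochberg over 20825 genes, in code tested on simulated data. Named genes are the 7 and all other carboxylesterases, of each further list up to 4 genes of 1 sign on all arrays with the largest mean or otherwise the 2 brightest, and the 4 nearest to Ces2a and to Ces1d. Alb was named after its values were seen. A gene that the rule names is not reported here. The members and lists were chosen with earlier results of these data known. With 4 arrays, their number limits the precision.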

Additional observations from a re-analysis of the deposited data

Results flagged for a closer look

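No carboxylesterase probe had 1 array far from the other 3. Among 43 values looked at in this way, 2 did, and chance alone gives about 1 in 20. Pon1, an esterase, read 2.95 on array e, far above its values on the other arrays, but it was not well above background at P30 on any array, so the size of this ratio is uncertain. Celf3, which lay among the genes nearest to Ces2a, read 0.74 on array e, below its values of 1.43 to 1.54 on the other arrays.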

How the results depend on the processing

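The number of the 7 genes with 1 sign on all arrays, 2 as reported, was 1 with the offset of 10, with processed signals before loess, with median centring, and with either the value table or the deposited log ratios, where the 1 was Ces2a, and it was 0 with array b turned. Leaving out 1 array gave 2 to 4, the 4 without array a (Ces2a, Ces2b, Ces1d and Ces1g) and 3 without array k. A sign is shared more readily over 3 arrays than over 4. The share of all genes over 3 arrays was not computed, so these counts are not read against the 2. Ces1g counted through a value of 0.012 on k, where its second probe read -0.078. In those settings with a count of 1 the bright Ces2b probe, at 0.0079 on array k as reported, came out below 0 on array b, on k or on both. Genes called over the whole table, 0 as reported, were 2 with the offset of 10, the processed signals, the value table and the deposited log ratios; the cause was not tested. Of the means of the 7 genes, that of Ces2a with array b turned (0.72) was the only one to move by more than the SD between arrays, over 18 settings including the probe without saturated spots, which was added after the data were seen. Ces2a ranged otherwise from 0.99 with median centring to 1.49 with the deposited log ratios, and from 1.18 to 1.48 when 1 array was left out. Each ratio already pairs 1 P90 with 1 P30 sample, so no further replicate block was fitted. Saturation limits the bright Ces2b and Ces2c probes. Filters, probe choice and saturated spots could not change Ces2a, which has 1 unsaturated probe.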
